A study of Mus musculus with 4 samples.

Results

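Zinc finger protein genes were examined in 46C mouse embryonic stem cells, a line whose Sox1 locus holds a fluorescent reporter gene, after treatment with CID755673, an inhibitor of protein kinase D. Members were taken by gene symbol from the authors' deposited table: symbols that begin with Zfp and a digit, Zscan, Zbtb, Zkscan, Zik, Zim, Zic, Klf and a digit, Rex2 or Prdm, without Zscan4 genes and pseudogenes. This gave 18 of the 1593 genes in the table. Symbols that begin with Zkscan, Zik, Zim, Zic and Rex2 had 0 members, and Zscan had 0 outside Zscan4. All cells were kept for 24 h in serum with 1 µM PD0325901, which inhibits the kinase MEK. The PD group (2 libraries) received only PD0325901, and the PC group (2 libraries) received PD0325901 and CID755673, at a dose that the labels do not give. The comparison addresses which genes are regulated by CID755673 while MEK is inhibited in both groups. Whether the replicate libraries are separate cultures is not said in the labels, so a p-value reflects the spread between these libraries alone, and that spread may be technical.

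Zinc finger proteins hold small loops of protein folded around a zinc ion, and many of them bind DNA. In the most common kind, C2H2, paired cysteines and paired histidines hold the zinc. Many mouse C2H2 proteins also carry a KRAB domain, which recruits the co-repressor Trim28 and, through it, histone and DNA methylation to retrotransposons and imprinted loci in embryonic stem cells. Others carry a BTB domain (Zbtb), which pairs proteins and recruits co-repressors, or a PR domain (Prdm), which is related to histone methyltransferase domains. The CCCH kind, with cysteines in place of the first histidine, binds RNA.

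The table had been selected by the authors' comparison on these same libraries. Every listed gene differed between the groups by at least 2-fold on the deposited log2 scale, with an unadjusted p of at most 0.0498. Zinc finger genes that are not in it are not analysed here. In the GENCODE M21 annotation 496 protein-coding genes have a symbol that matches the rule, and 3.63% of them were listed, against 5.52% of all 21951 protein-coding genes. Values below are normalized reads, that is reads divided by 1 size factor per library, and log2 changes are PC minus PD of log2(normalized reads + 1), a scale on which low genes show smaller changes than their reads do. The listed genes together had 433684 reads in the shallowest library (PC replicate 2) and 683777 in the deepest (PD replicate 2). The depth over all genes is unknown. Of 9 markers of embryonic stem cells, 4 were listed (Tdh, Utf1, Lin28a and Dnmt3l), all 4 with lower values in PC, as had 61.5% of all listed genes. The markers were chosen with earlier results of these data known, so their count is not read as a result about cell identity. The other markers, Pou5f1, Sox2, Nanog, Zfp42 and Dppa5a, are not analysed here.

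Of the 18 zinc finger genes 12 had lower and 6 had higher values in PC. Among all listed genes 61.5% were lower and 38.5% higher, so the split of the zinc finger genes lay near that of the table. In limma's moderated test, with p-values adjusted by the Benjamini-Hochberg method over the 31432 genes of the authors' own test, 10 members had an adjusted p under 0.05, 7 lower and 3 higher. The test called 31.1% of all listed genes, 19.8% lower and 11.2% higher. The members were more abundant than the table: the median member had a mean of 384.9 normalized reads over the 4 libraries, and the median listed gene had 55.1. Among genes with a mean of at least 200 normalized reads, a level chosen after the data were seen, the test called 75.0% of 12 members and 80.2% of 394 listed genes. In all 18 members both PC libraries lay on the same side of both PD libraries, as in 99.7% of listed genes. Since the table was selected on this contrast, no such count is evidence about zinc finger genes as a class.

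The calls rest on the full set of 4 libraries and on a prior for the spread that follows abundance. With reads left without size factors, or with a prior that has no trend, limma called 0 of the 18 members. With any library left out the members also lost their calls, as did most of the listed genes called with all 4. Without size factors the smallest adjusted p of a member was 0.15 by limma, and 64 of all 1593 listed genes were called. Without the trend it was 0.14 by limma, and 1 listed gene was called, so the loss was not particular to the members. Every member kept its direction, which the selection of the table nearly fixes. At an unadjusted p under 0.05 limma counted 17 members without size factors and 18 without the trend. By the false discovery rates in the authors' deposited table, 17 members stood under 0.05, as did 70.2% of the listed genes. The member above it was Zfp853, at 0.081 in the authors' deposited table.

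**Figure D1:**
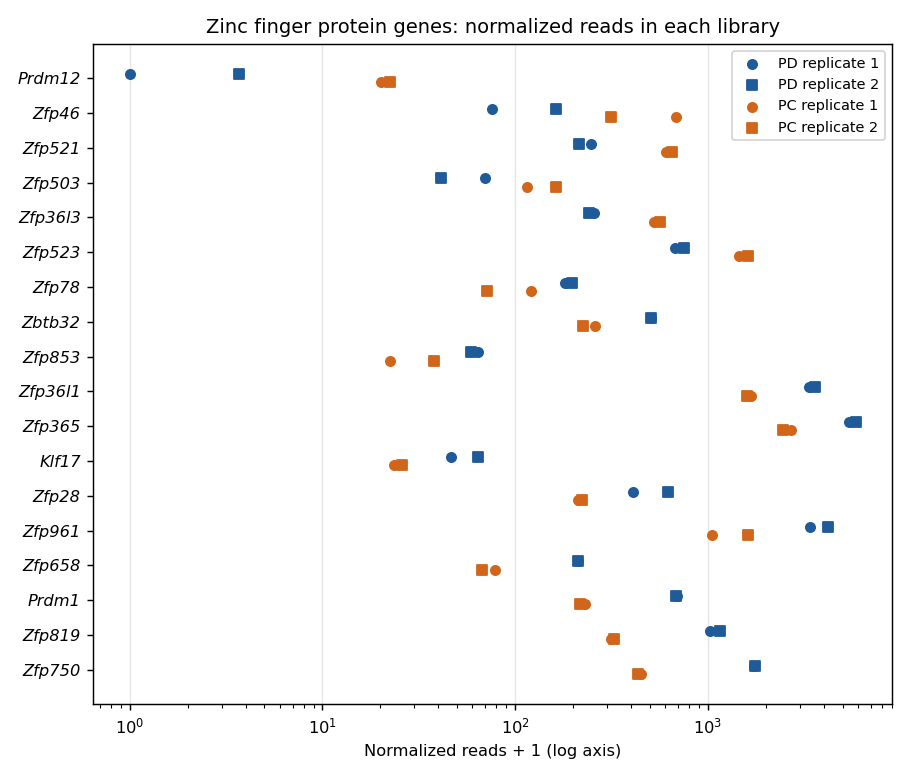
Normalized reads plus 1 (log axis) of each of the 18 zinc finger genes in each library, with PD libraries in blue and PC libraries in orange, circles for replicate 1 and squares for replicate 2. In every gene the orange points lie on one side of the blue points, and the lower 12 genes have lower values in PC.

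**Figure D2:**
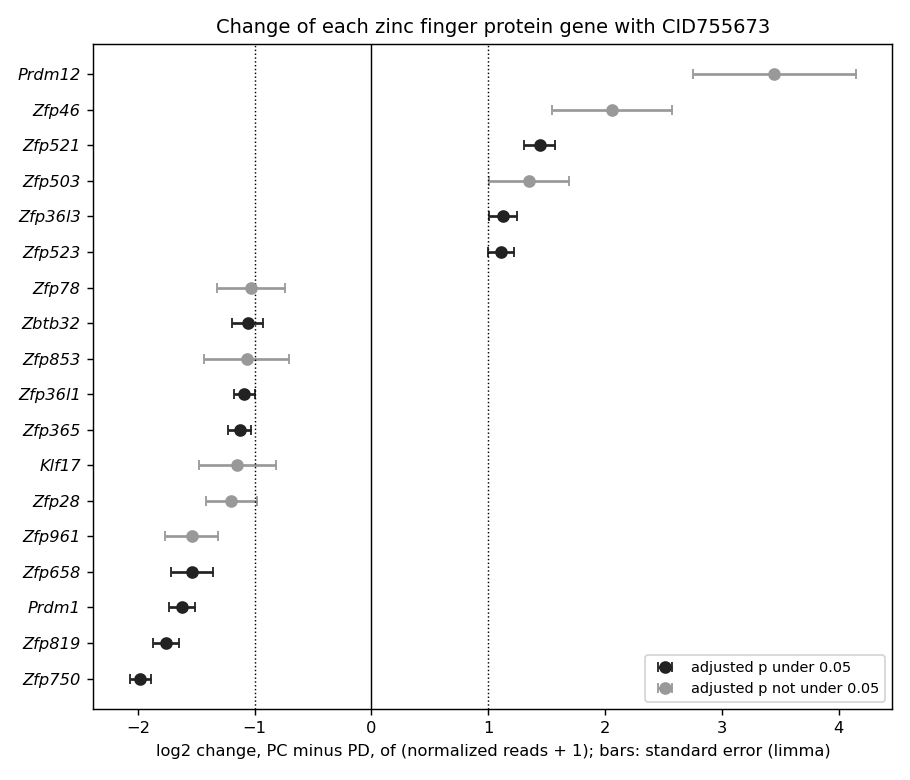
Log2 change, PC minus PD, of each zinc finger gene with its standard error from limma, in black where the adjusted p was under 0.05 and in grey otherwise. Dotted lines mark the fold limit of the deposited table, and the grey genes have the longer error bars.

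The PR-domain genes differed in opposite directions, and of the pair Prdm1 passed the test. Prdm1 encodes Blimp1, a transcriptional repressor needed to specify primordial germ cells and to form plasma cells. Its transcripts were at 686.5 and 683.7 normalized reads in PD, against 229.5 and 215.3 in PC. Both PC libraries were low and close together, and the nearest libraries of the groups stood 2.98-fold apart. Prdm1 fell with a log2 change of -1.62 (standard error 0.11, adjusted p = 0.013 by limma). The means differed by 3.08-fold. Prdm12, which is needed for the development of pain-sensing neurons, had 0 and 3 reads in PD, against 23 and 18 in PC. Pooled over each group and scaled by size factors, PC was 14.2-fold above PD, with an exact 95% interval from 4.5 to 71.5 that covers counting error only. Its fitted log2 change was 3.45, and it was 2.50 without PD replicate 1 and 4.41 without PD replicate 2. Prdm12 did not pass the test (adjusted p = 0.16 by limma), and passed with a pseudocount of 5 (adjusted p = 0.04 by limma). Its exons overlap those of Gm13425 on the other strand, and no source used here gives the strand setting of the counting, so reads in the shared stretch, 6.3% of the 50-base runs of Prdm12, cannot be told apart.

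Zbtb32 and Klf17 were the only members of the BTB and Krüppel-like groups, and both were lower in PC. Zbtb32 is a BTB-domain repressor of lymphocytes that also bears the name repressor of GATA. It was at 505.2 and 505.0 normalized reads in PD, and at 260.1 and 224.8 in PC. The PD libraries were almost equal and the PC libraries both lower, and Zbtb32 fell by 1.06 on the log2 scale (standard error 0.13, adjusted p = 0.031 by limma). Klf17, a Krüppel-like factor first known from germ cells, was at 45.6 and 63.2 in PD and at 22.4 and 25.0 in PC. Its groups did not overlap, but the PD libraries differed from each other by 1.39-fold and Klf17 did not pass (adjusted p = 0.43 by limma). Transcripts of Gm20690 hold 9.3% of the 50-base runs of Klf17, and reads from such runs cannot be told apart.

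Chromosome 7 held 5 of the 18 members, Zfp819, Zfp658, Zfp28, Zfp78 and Zbtb32, and all 5 had lower values in PC. It also holds 20.6% of the annotated genes that match the rule, since many KRAB zinc finger genes lie there in clusters. Of all 143 listed genes on chromosome 7, 68.5% were lower. In the RefSeq gene order Zfp28 and Zfp78 are direct neighbours. Zfp658 and Zfp819 are separated by the 1 protein-coding gene Zfp719, which is not analysed here. Among the 5 protein-coding genes on either side of Zfp819 and Zfp658, the other listed gene was Siglece, whose log2 change was 1.45, opposite to theirs.

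Zfp819, a KRAB zinc finger gene whose protein binds Trim28, was at 1021.1 and 1150.2 normalized reads in PD and at 311.5 and 326.0 in PC. It fell by 1.76 on the log2 scale (standard error 0.11, adjusted p = 0.012 by limma). The means differed by 3.41-fold. Its neighbour Zfp658, whose coding sequence holds 21 matches to the codon pattern of a C2H2 finger, was at 210.4 and 211.7 in PD and at 77.9 and 66.6 in PC. Both PC libraries of Zfp658 were low, and it fell with a log2 change of -1.54 (standard error 0.18, adjusted p = 0.026 by limma). Of the 50-base runs of the Zfp819 transcript 0.6% also occurred in transcripts of another gene, Zfp719, and of those of Zfp658 0.0%.

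The 250 bases before the start sites of these neighbours are shown because the pair fell together. They are from RefSeq on GRCm38.p6, are written 5′ to 3′ in the direction of transcription, and have matches to 6 common promoter motifs in capitals. The motifs were searched on both strands. They were the TATA motif TATAAA, held by 12.4% of 32851 windows of this length in the RefSeq table, the CCAAT box with the letters in its name (33.8%), the GC box GGGCGG (32.7%), the E-box CACGTG (6.0%), the cyclic AMP response motif TGACGTCA (1.5%) and the ETS motif CCGGAAGT (2.9%).
Zfp658, chr7:43562120-43562369, + strand: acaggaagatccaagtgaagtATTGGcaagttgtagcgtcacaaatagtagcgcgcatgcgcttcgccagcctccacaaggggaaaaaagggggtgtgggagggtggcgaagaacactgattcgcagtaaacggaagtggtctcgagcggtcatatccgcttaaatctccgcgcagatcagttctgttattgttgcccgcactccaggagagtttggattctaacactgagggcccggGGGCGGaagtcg
Zfp819, chr7:43606919-43607168, + strand: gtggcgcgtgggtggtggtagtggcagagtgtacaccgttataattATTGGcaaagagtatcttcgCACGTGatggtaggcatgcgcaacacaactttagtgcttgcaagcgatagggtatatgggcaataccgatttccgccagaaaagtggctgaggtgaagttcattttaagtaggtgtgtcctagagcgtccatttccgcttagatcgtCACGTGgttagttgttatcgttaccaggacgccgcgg
The Zfp819 window held 2 E-box matches and 1 CCAAT box. The Zfp658 window held 1 CCAAT box, 1 GC box and no E-box. Both windows held 17 CpG dinucleotides, against a median of 6 over all windows. These matches describe letters and not bound sites.

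The other neighbouring pair had lower values without passing the test. Zfp28, a KRAB zinc finger gene with 14 finger patterns, was at 407.3 and 617.7 normalized reads in PD and at 212.1 and 222.5 in PC. Its PD libraries differed by 1.52-fold, and the adjusted p was 0.11 (limma with Benjamini-Hochberg adjustment). The processed pseudogene Gm3203 holds 16.0% of its 50-base runs, and reads from such runs cannot be told apart between them. Zfp78, with 11 finger patterns, was at 181.3 and 196.1 in PD and at 119.3 and 70.2 in PC (adjusted p = 0.39 by limma). Its PC replicate 2 was the lowest library, and the nearest libraries of the groups stood 1.52-fold apart, the smallest such gap among the members. With a filter at a mean of 10 normalized reads Zfp28 passed (adjusted p = 0.046 by limma).

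Outside chromosome 7, Zfp961 and Zfp853 were the remaining Zfp genes with C2H2 patterns and lower values. Zfp961, with 11 finger patterns, was among the most abundant members, at 3395.8 and 4222.3 normalized reads in PD and at 1053.8 and 1611.9 in PC. The PC libraries lay well below the PD libraries, but differed from each other by 1.53-fold, and Zfp961 missed the threshold (log2 change -1.54, standard error 0.23, adjusted p = 0.06 by limma). It passed with limma-voom on the recovered reads (Benjamini-Hochberg adjusted p = 0.0085), with a pseudocount of 5 (0.031) and with the filter at 10 normalized reads (0.014). Zfp853 was at 63.0 and 57.7 in PD and at 21.5 and 36.9 in PC and did not pass (adjusted p = 0.69 by limma). Exons of Zfp961 overlap those of Cyp4f18 on the other strand, and 0.0% of the 50-base runs of its longest transcript occurred in transcripts of another gene. The overlap was taken over all exons of Zfp961, so reads in it may still not be told apart.

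Besides Prdm12, the members with C2H2 patterns and higher values in PC were Zfp521, Zfp523 and Zfp46, of which Zfp521 and Zfp523 passed. Zfp521, a nuclear factor with 27 finger patterns, the most among the members, is known for promoting neural differentiation of embryonic stem cells and for its role in blood progenitors. It was at 246.3 and 214.5 normalized reads in PD and at 605.6 and 649.5 in PC. Both PC libraries were high, and Zfp521 rose by 1.44 on the log2 scale (standard error 0.13, adjusted p = 0.015 by limma). The means differed by 2.72-fold. Zfp523, the mouse gene of human ZNF76 and a relative of the promoter-binding factor Zfp143, was at 672.0 and 750.6 in PD and at 1449.0 and 1621.4 in PC. It rose by 1.11 (standard error 0.11, adjusted p = 0.019 by limma). Exons of Zfp523 overlap those of AC126937.2 on the other strand. Without strand, reads in the shared stretch, 5.1% of the 50-base runs of Zfp523, cannot be told apart. Zfp46, the mouse gene of human ZNF436, was at 74.7 and 161.3 in PD and at 681.0 and 314.1 in PC. Its means differed by 4.22-fold, more than those of Zfp521, but its libraries differed by 2.16-fold within PD and 2.17-fold within PC, and it did not pass (adjusted p = 0.28 by limma).

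Zfp750, Zfp365 and Zfp503 carry zinc finger names, and their coding sequences held 0 matches to the codon pattern of a C2H2 finger. The pattern misses fingers with other spacings or residues, so this does not show that the proteins lack zinc fingers. Zfp750, a transcription factor of terminal epidermal differentiation, was at 1724.1 and 1760.6 normalized reads in PD and at 447.4 and 435.4 in PC. The libraries of each group lay within 1.03-fold of each other and the groups 3.85-fold apart at their nearest libraries. Zfp750 fell by 1.98 on the log2 scale (standard error 0.09, adjusted p = 0.011 by limma), the largest fall among the members. The means differed by 3.95-fold. Zfp365, which encodes a coiled-coil protein of neurons and the centrosome also named DBZ, had the most reads of all members, at 5404.1 and 5877.4 in PD and at 2702.5 and 2444.6 in PC. It fell by 1.13 (standard error 0.10, adjusted p = 0.014 by limma). Zfp503, also named Nolz1, is a co-repressor of the developing striatum, hindbrain and limb. It was at 68.8 and 40.3 in PD and at 114.3 and 161.8 in PC. Both PC libraries were above both PD libraries, but the PD libraries differed by 1.71-fold, and Zfp503 did not pass (adjusted p = 0.31 by limma).

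The CCCH genes Zfp36l1 and Zfp36l3 also moved in opposite directions. Both encode proteins of the tristetraprolin family, which bind AU-rich elements of messenger RNAs and speed their decay, and Zfp36l3 is a rodent-specific member known from placenta and yolk sac. Each coding sequence held 2 matches to the codon pattern of a CCCH finger and 0 to that of C2H2. Zfp36l1 was at 3365.8 and 3577.1 normalized reads in PD and at 1664.4 and 1597.6 in PC, and fell by 1.09 on the log2 scale (standard error 0.09, adjusted p = 0.014 by limma). Zfp36l3 was at 257.0 and 239.2 in PD and at 526.1 and 561.5 in PC, and rose by 1.13 (standard error 0.12, adjusted p = 0.02 by limma). For both genes the replicates of a group lay within 1.07-fold of each other. Per kilobase of exon, Zfp36l3 made up 8.9% and 7.9% of the summed level of the pair in PD, against 28.7% and 30.9% in PC. Zfp36l1 remained the more abundant of the pair in every library. The long non-coding RNA gene Gm26669, on the other strand, holds 53.6% of the 50-base runs of Zfp36l1, and without strand the reads of Zfp36l1 and Gm26669 cannot be told apart there. Zfp36l3 shared 0.0% of its runs with other genes.

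The windows of 250 bases before the start sites of the CCCH genes are shown because the genes moved apart, with the same source, direction and capitals as above.
Zfp36l1, chr12:80113014-80113263, - strand: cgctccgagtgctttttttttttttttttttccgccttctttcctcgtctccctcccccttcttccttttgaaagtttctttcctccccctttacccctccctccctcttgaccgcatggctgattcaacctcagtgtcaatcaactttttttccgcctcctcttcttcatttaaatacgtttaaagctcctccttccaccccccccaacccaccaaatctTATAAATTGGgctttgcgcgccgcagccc
Zfp36l3, chrX:53776395-53776644, - strand: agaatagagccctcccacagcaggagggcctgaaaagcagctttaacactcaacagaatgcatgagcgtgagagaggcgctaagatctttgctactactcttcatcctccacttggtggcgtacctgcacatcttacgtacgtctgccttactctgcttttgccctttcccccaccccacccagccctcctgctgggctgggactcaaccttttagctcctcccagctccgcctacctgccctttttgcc
The Zfp36l1 window held a TATA motif that overlaps, by a base, a CCAAT box in reverse orientation. The Zfp36l3 window held no match to any of the 6 motifs, which says only that these letters are not in this window. They held 10 and 6 CpG dinucleotides.

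Over all members, 13 of 18 held at least 3 C2H2 patterns (cysteine codons 2 to 4 codons apart, 12 codons, then histidine codons 3 to 5 codons apart), against 632 of 21533 annotated protein-coding genes. Since the members were chosen by zinc finger symbols, this difference follows largely from the rule. The pattern was present in members that fell (Prdm1, Zbtb32, Zfp658 and Zfp819) and in members that rose (Zfp521 and Zfp523). RefSeq promoter windows were found for 16 of the 18 members, 19 windows in all, with a median of 13 CpG dinucleotides. The E-box was in 2 of the 19 windows, the CCAAT box in 8, the GC box in 7, the TATA motif in 3, and the cyclic AMP response and ETS motifs in 1 each. These are descriptions without a test.

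Per kilobase of exon, levels in PD spanned from 0.6 normalized reads per kilobase for Prdm12 to 1161.0 for Zfp36l1, with Zfp365 at 1083.7 and Zfp961 at 878.9 next. In PC the same 3 genes stood highest, at 545.5, 494.4 and 307.5 normalized reads per kilobase, and Zfp36l3 moved from the eighth to the fourth place. These orders were not tested. The spread between replicates separated the called from the other members, which the test itself reads: the replicates of a called member differed by at most 1.17-fold, and those of each other member by at least 1.39-fold in 1 of the groups, with Prdm12 left aside for its 0 reads. The median absolute log2 change was 1.28 over the members and 1.47 over all listed genes.

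**Figure D3:**
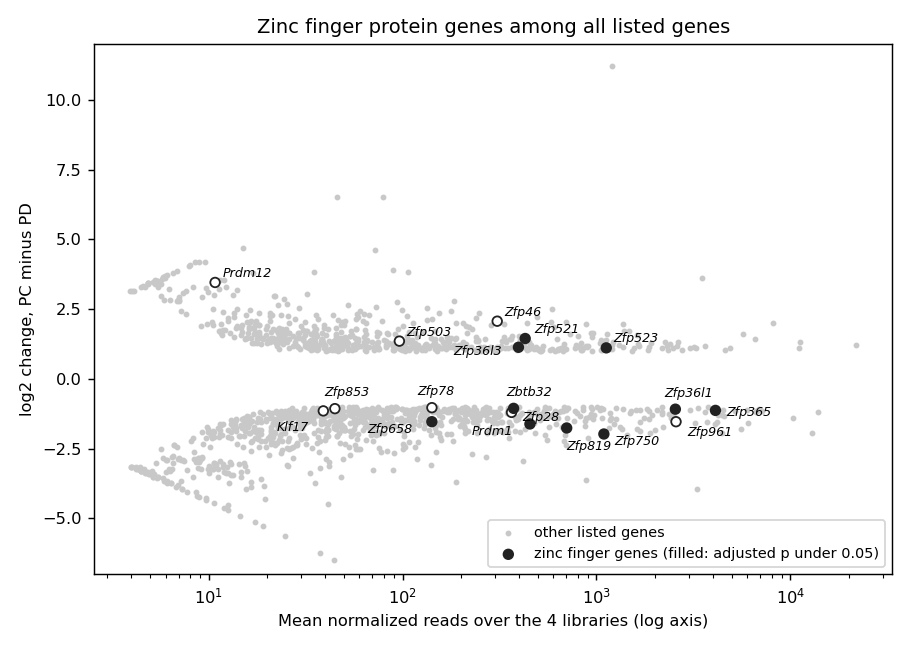
Log2 change, PC minus PD, against the mean normalized reads over the 4 libraries (log axis) for all listed genes (grey) and the 18 zinc finger genes (circles, filled where the adjusted p was under 0.05). The empty band around 0 is the fold limit of the deposited table, and the filled members all have means of at least 141.7 normalized reads.

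The lists of related genes are given beside the 5.52% of all protein-coding genes that were listed, and at their sizes no count is read as a result about a list. Of 28 co-repressors and heterochromatin factors that KRAB zinc finger proteins use, among them Trim28 and Setdb1, 0 were listed, and of 8 partners of BTB proteins 0 were listed, so their levels are not analysed here. Of 22 zinc finger and related factors named for pluripotent or early neural cells 2 were listed, Zfx and the member Zfp521, and both rose. Zfx, an X-linked C2H2 factor that supports self-renewal of stem cells, was at 649.7 and 646.1 normalized reads in PD and at 2140.8 and 2105.6 in PC, a rise of 1.71 on the log2 scale (standard error 0.09, adjusted p = 0.012 by limma). Of 61 C2H2 factors outside the symbol rule 4 were listed, Sp9, Snai3, Insm1 and Fezf2, all with lower values in PC. Of these 0 passed, with limma adjusted p-values from 0.1 for Sp9 to 0.33 for Snai3. All 4 had an unadjusted limma p under 0.05, which the selection of the table nearly fixes. Listed genes with C2H2 patterns outside both the rule and these 61 went both ways, among them Zfx and Zfr2 (log2 changes 1.71 and 1.44) and Zmat4 (-1.80). Of 12 CCCH proteins, the listed ones were Zfp36l1 and Zfp36l3. Of 13 genes of the 2-cell stage outside Zscan4, 2 were listed, both lower: Tmem92, at 85.3 and 88.9 in PD and at 11.6 and 10.7 in PC, passed (adjusted p = 0.022 by limma) and Arg2 did not (adjusted p = 0.14).

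**Figure D4:**
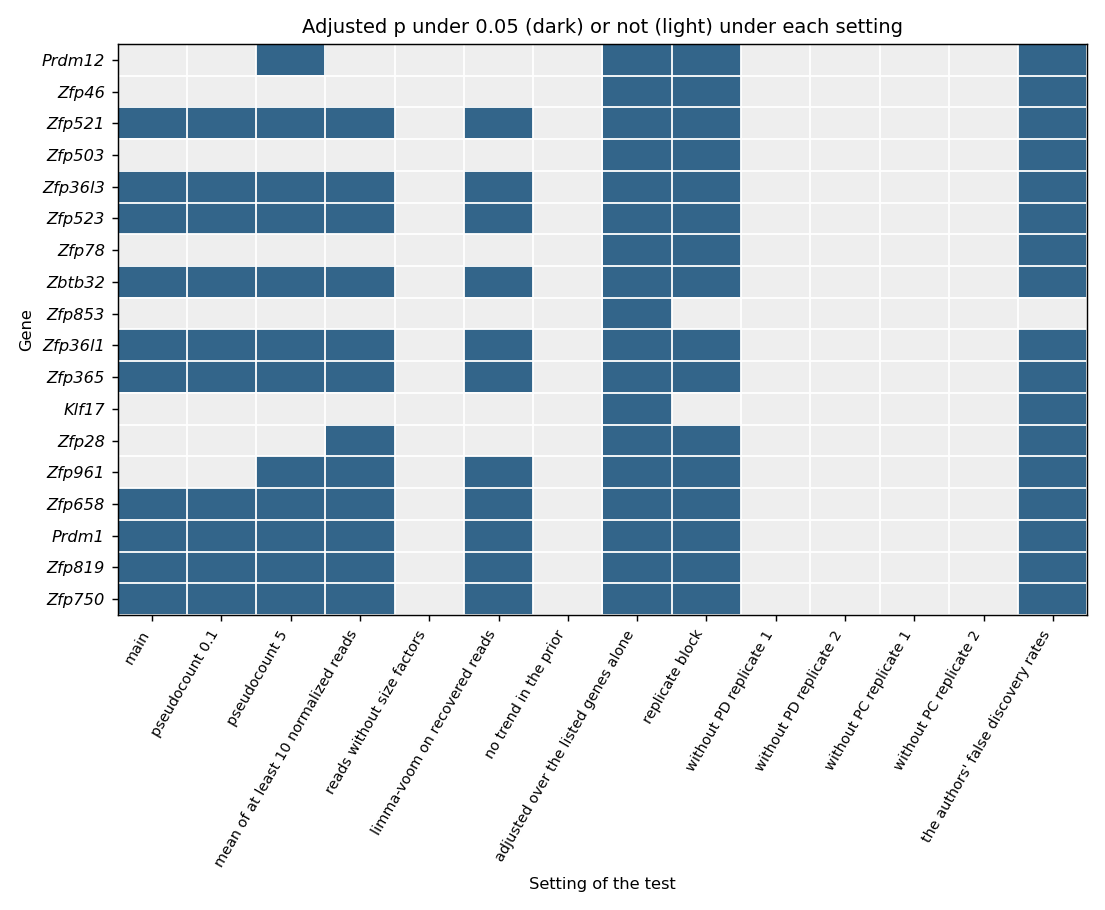
For each zinc finger gene (rows) and each setting of the test (columns), dark marks an adjusted p under 0.05 and light an adjusted p that was not; the column named main is the test of the text and the last column holds the authors' false discovery rates. The 4 columns that leave out a library, the column without size factors and the column without a trend are light for all 18 genes.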

How the data were processed

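RNA from 4 libraries was sequenced by the submitters, 2 per treatment group. The authors deposited 1 table of 1593 genes with log2 values per library. With the log undone and 1 subtracted, 100.0% of values were whole multiples of a step per library, within 0.001 reads, so they are log2(reads divided by a size factor, plus 1). The size factors were 1.0313 and 1.0911 (PD) and 1.2070 and 0.8406 (PC). The deposited p-values and false discovery rates are the authors' own, per the file headers. Bowtie 0.12.2 and the build mm9 are named, without a role, per the submitters' processing notes. The counting tool, annotation, strand setting, normalization tool and test were not given in the sources used here.

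Dividing the smallest false discovery rate by its p gave 31432 genes in the authors' test. A linear model (limma 3.58.1, R 4.3.3) was fitted to all listed genes on the log2(value + 1) scale with a trended prior, 2 residual degrees of freedom and no block. The fit was also run on simulated reads in which most genes did not change. The deposited genes were selected for change, so that run says nothing about the error rate of the calls here. A filter at a mean of 1 normalized read removed 0 genes. Benjamini-Hochberg adjustment treated unlisted genes as having larger p-values, which leans towards fewer calls, while a spread estimated from genes selected for small p leans towards more. Alternatives changed the pseudocount, the filter, the scaling, the prior, the test, the set of adjusted p-values and the replicate block, or left out 1 library. Members and lists were chosen with earlier results of these data known. Genes named with values were the called, the most abundant (6), the largest rises and falls (5 each), all members outside the Zfp symbols and listed genes of the lists. Zfp28, Zfp78 and Zfp853 were added after their values were seen, as were the finger patterns, motifs and shared runs. Exon lengths, overlaps and patterns came from GENCODE M21 (GRCm38), not the build named for the files, and describe the genes, not the counting. CCCH patterns were 3 cysteine codons with 8 and then 5 codons between them, followed after 3 more codons by a histidine codon. A planned KRAB search was not run, because no protein table was used.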

Additional observations from a re-analysis of the deposited data

How the results depend on the processing

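All 18 zinc finger genes kept their direction under the 13 alternatives, which the selection of the table nearly fixes. The count of members called, 10 in all with 3 higher and 7 lower, stayed within 1.5 times with a pseudocount of 0.1 or 5, a filter at 10 normalized reads, and limma-voom, which gave 10, 12, 12 and 11. Of all listed genes these settings called 417, 582, 585 and 661, against 495 in the main test. It was 0, with 0 higher and 0 lower, for reads without size factors, for a prior without a trend, and with any single library left out (0 to 0 in each direction). In the fits without a library 1 residual degree of freedom was left, and a group with 1 library borrows the spread of the other. Adjusted over the listed genes alone, 18 members passed, 6 higher and 12 lower, as did 1536 of all listed genes. By the authors' false discovery rates 17 members passed, 6 higher and 11 lower, as did 1119 of all listed genes. The cause of these differences was not tested, except that adjusting over fewer genes lowers every adjusted p. With the replicate number as a block limma called 16 members, 6 higher and 10 lower, with 1176 of all listed genes called. The deviations of same-numbered libraries had a correlation of 0.000 across 1593 genes. These genes were selected on the same libraries, so that value cannot settle whether same-numbered libraries were handled together. The labels give no pairing beyond the number, and no weight is put on the block. Prdm12, Klf17 and Zfp853 had the fewest reads of the members, at most 69 in any library, and the part of depth in their missing calls was not tested.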

Other observations

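Listed genes outside the symbol rule and outside Zscan4 also held finger patterns: 12 held at least 1 C2H2 pattern and 2 a CCCH pattern. Of these Zmat4, a C2H2 gene, fell by 1.80 on the log2 scale (standard error 0.14, adjusted p = 0.014 by limma), from 406.3 and 457.3 normalized reads in the PD libraries to 129.2 and 117.8 in the PC libraries. Zc3h6, a CCCH gene, rose from 147.4 and 93.5 to 457.3 and 444.9 normalized reads (adjusted p = 0.033 by limma). Rbm20, a splicing factor of heart muscle with 1 C2H2 pattern, rose from 603.1 and 510.5 to 2163.2 and 2193.6 normalized reads (adjusted p = 0.012 by limma). Zfr2, with 3 patterns, was at 85.3 and 113.6 in PD and 322.3 and 224.8 in PC and did not pass (adjusted p = 0.098 by limma). Foxp1, a forkhead factor that also holds 1 C2H2 pattern, was at 4490.6 and 4405.6 in PD and at 1801.1 and 2613.6 in PC and did not pass (adjusted p = 0.11 by limma). These genes were chosen after their values were seen.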
